A study of Mus musculus with 6 samples.

Results

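The epithelial carbonic anhydrases described here are Car1, Car2, Car4, Car8, Car12 and Car13, measured in the colon mucosa of mice lacking microRNA-21 and of wild type mice. They were chosen by gene symbol: every probe of the bead array whose symbol is one of these 6 names was taken, and Car3, a family member abundant in fat, was kept apart. Of the 6 genes, 4 had a probe in the table (Car2, Car4, Car12 and Car13), with 5 probes among 25697 probes for 17940 symbols in all. Car1 and Car8 are not analysed here. Of the 5 probes, 4 were detected on at least 3 of the 6 arrays and entered the test together with the other tested probes, 13737 in all. The second probe of Car2 was detected on no array.

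The arrays carried total RNA from colon mucosa of 3 miR-21 KO samples (miR-21-/- mice on a C57BL/6 background) and 3 WT samples (C57BL/6 mice). All mice were untreated, and the series asks how loss of the microRNA bears on colitis. The KO mice came from another laboratory and the WT mice from Taconic, so genotype and source cannot be told apart in any result. The KO mice are described as free of spontaneous colitis. Age and sex are not given in the sources used here, and neither is whether a sample is 1 animal, so p-values describe how these samples vary, and that variation may be technical.

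Carbonic anhydrases are zinc enzymes that interconvert carbon dioxide and water with bicarbonate and a proton. In the colon they supply the ions that surface epithelial cells exchange for sodium and chloride. Car1, Car2 and Car13 are cytosolic enzymes, Car4 is tethered to the outer face of the apical membrane by a lipid anchor, and Car12 spans the membrane with its active site outside the cell. Car8 is a family member that has lost the catalytic activity. The deleted microRNA is a short RNA that pairs with messenger RNAs through its seed, and its main mature strand is shown because its absence defines the KO group. It lies at chr11:86584120-86584141 on the minus strand (RefSeq, GRCm38.p6), and the capitals mark the seed, bases 2 to 8.
mmu-miR-21a-5p: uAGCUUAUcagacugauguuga

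The promoter windows of Car4 and Car12 are shown because these are the members that passed the test. Each is the 250 bases before the gene's annotated start (RefSeq, GRCm38.p6), and the table of promoters matched these 2 of the 4 measured members. Car4's window is chr11:84957504-84957753 on the plus strand, with a GC content of 56.4% and 11 CpG dinucleotides. Car12's window is chr9:66713436-66713685 on the plus strand, with a GC content of 59.2% and 6 CpG dinucleotides. Over all 32841 promoter windows of this length the medians were 52.4% and 6. In Car12's window the capitals mark a GC box read on the minus strand.
Car4 promoter: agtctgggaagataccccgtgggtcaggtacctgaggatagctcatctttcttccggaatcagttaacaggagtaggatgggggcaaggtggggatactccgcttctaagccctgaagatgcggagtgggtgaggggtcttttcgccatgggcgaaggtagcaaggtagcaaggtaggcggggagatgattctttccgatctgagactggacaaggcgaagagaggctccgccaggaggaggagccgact
Car12 promoter: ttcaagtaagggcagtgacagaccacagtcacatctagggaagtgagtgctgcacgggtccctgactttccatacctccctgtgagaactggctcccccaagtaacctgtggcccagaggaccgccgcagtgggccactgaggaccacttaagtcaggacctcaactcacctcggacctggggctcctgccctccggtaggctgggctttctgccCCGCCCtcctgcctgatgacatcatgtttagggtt
Both strands were searched for 6 short motifs, and the shares of all windows that hold each one differed widely. The TATA box TATAAA was in 12.4% of windows, the GC box GGGCGG in 32.7%, the GATA motif AGATAA in 9.99% and the CDX motif TTTATNG in 9.81%. CAAAG, a core of HNF4 and TCF sites, was in 48.6%, and ACGTG, the core of the hypoxia response element, in 16.6%. Car12's window held 1 match, the GC box at 35 to 30 bases upstream of the start, which overlaps no other motif searched. Car4's window held none of the 6. A match is a description of the letters, and its absence concerns these letters in this window only.

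Median intensity was 98.3 to 109.3 on the KO arrays and 97 to 115 on the WT arrays, and the share of probes detected was 53.9% to 54.6% on the KO arrays and 50.4% to 52.3% on the WT arrays, without overlap. Across probes (Pearson, normalized log2 values), r was 0.981 to 0.991 between arrays that share a group and 0.956 to 0.972 between a KO and a WT array. The dimmest array of each group was replicate 3. The tissue label was checked against epithelial markers: the keratin gene Krt8 had normalized values of 14.0, 14.1 and 13.8 in KO and 13.8, 14.0 and 13.9 in WT, and the adhesion gene Cdh1 was detected on every array. Epcam and Muc2 are not analysed here. Transcripts of smooth muscle were present too, since all 8 smooth muscle markers with a probe were tested. In bulk tissue, fewer cells of a type and less RNA per cell cannot be told apart.

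In KO mucosa Car4 was lower and Car12 was higher than in WT mucosa, while Car2 and Car13 did not pass the threshold (limma, Benjamini-Hochberg adjusted p under 0.05 over the 13737 tested probes). Thus 2 of the 4 tested carbonic anhydrase probes were called, 1 in each direction. Car12 was detected on no WT array, so its probe entered the test only through the KO arrays and its WT level is only a bound. Over all tested probes 15.1% were called, 7.55% lower and 7.53% higher. After normalization the KO and WT arrays did not overlap for the 2 called probes, against 36.4% of all tested probes. The raw ranges of Car12 did overlap. Values below are log2 intensities after background correction and quantile normalization unless called raw. A difference is KO minus WT, and the median difference over all tested probes was 0.028.

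**Figure D1:**
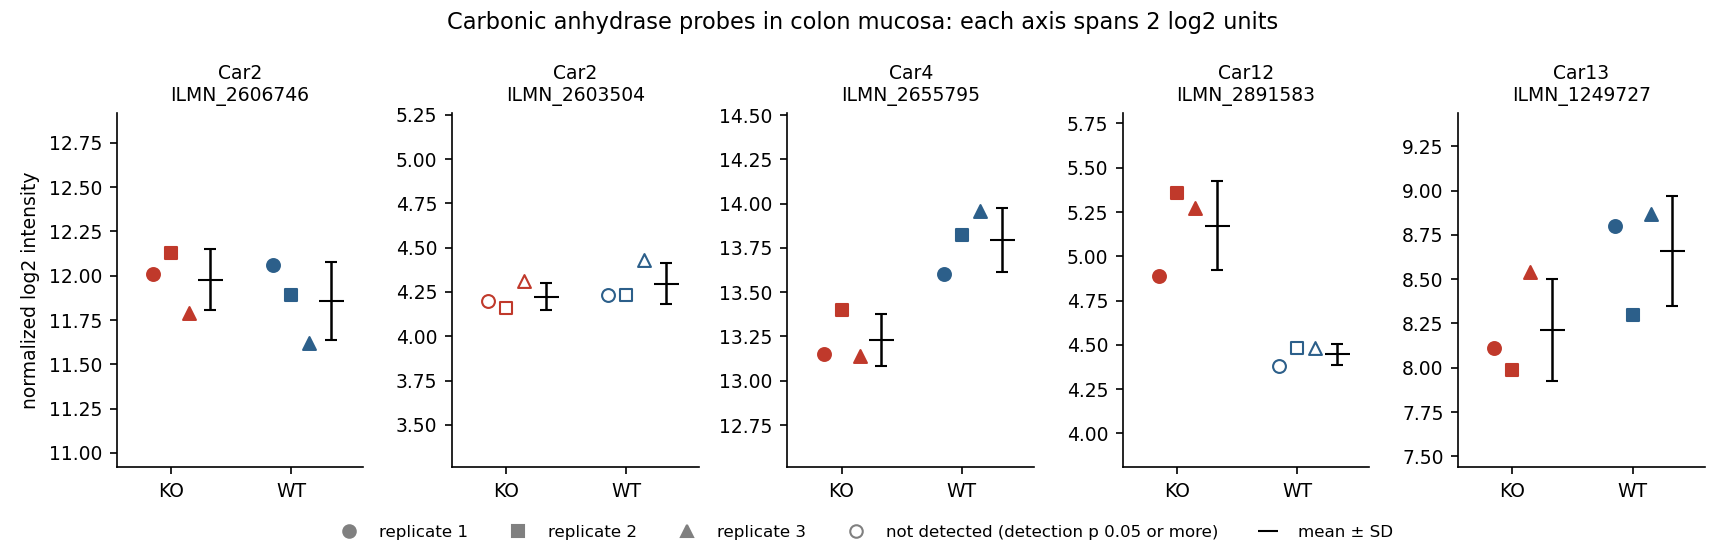
Normalized log2 intensity of the 5 carbonic anhydrase probes on each array, with the 3 KO arrays left of the 3 WT arrays in each panel; the symbol's shape gives the replicate, open symbols are arrays on which the probe was not detected, and the bar is the group mean ± SD. Every panel spans the same number of log2 units around its own centre. The KO and WT points are apart for Car4 (KO 13.14 to 13.40, WT 13.60 to 13.96) and Car12 (KO 4.89 to 5.36, WT 4.38 to 4.48), and overlap for the other probes.

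Car4, the lipid-anchored enzyme of the apical surface, lay on chromosome 11 and was represented by probe ILMN_2655795. Its raw intensities were 9135.4, 10785.8 and 7363.3 on KO arrays 1 to 3. On WT arrays 1 to 3 they were 14194.1, 16985.1 and 13625.9. After normalization the KO arrays held 13.15, 13.40 and 13.14, and the WT arrays 13.60, 13.82 and 13.96. All KO arrays lay below all WT arrays, and the highest KO value was 0.19 below the lowest WT value; 17% of tested probes had all KO arrays below all WT arrays. The means were 13.23 ± 0.15 in KO and 13.79 ± 0.18 in WT (SD, n = 3 each). Car4 was 1.47-fold lower in KO, a difference of -0.56 ± 0.15 on the log2 scale (SE, 95% interval -0.90 to -0.21, limma adjusted p = 0.0406). The adjusted p lay close to the threshold: leaving out any 1 of the 6 arrays gave differences of -0.65 to -0.47 with adjusted p from 0.0531 to 0.118, so each of these 6 fits lost the call. Over all 17 alternatives the difference stayed negative, from -0.77 to -0.42, and the call was lost in 11.

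Car12, the membrane-spanning enzyme with an external active site, lay on chromosome 9 and was near the limit of detection. Its probe ILMN_2891583 had raw intensities of 114.9, 127.2 and 108.1 on the KO arrays and 104.5, 110.8 and 94.8 on the WT arrays, with the raw ranges overlapping. The detection p-values were 0.00376, 0 and 0 in KO, against 0.182, 0.0977 and 0.123 in WT. The probe was therefore detected on 3 of 3 KO arrays and not well above background on the WT arrays; 1.28% of tested probes were detected on every KO array and on no WT array. The lowest normalized value among detected probes was 4.52 to 4.54 on the KO arrays and 4.59 to 4.65 on the WT arrays, and with the higher share of probes detected in KO this moves the same way as Car12; its part in the result was not tested. A probe with this pattern enters the test only through the group in which it is brighter. Normalized values were 4.89, 5.36 and 5.27 in KO and 4.38, 4.48 and 4.48 in WT, a gap of 0.40 between the groups; 19.4% of tested probes had all KO arrays above all WT arrays. The means were 5.17 ± 0.25 in KO and 4.45 ± 0.060 in WT (SD, n = 3 each). The fitted difference was 0.72 ± 0.16 (SE, limma adjusted p = 0.0198). Since the WT level is only a bound, Car12 was at least 1.48-fold higher in KO on the reported scale, with background correction and offset 16. This bound takes for each WT array the higher of the probe's own value and the lowest value among detected probes. It does not carry over to other processing, which could give a smaller difference. With no background correction the difference was 0.18 ± 0.05 (SE, limma adjusted p = 0.0776), and with an offset of 50 it was 0.33 (limma adjusted p = 0.0505). Left out in turn, WT replicates 1 and 3 also ended the call (adjusted p = 0.0637 and 0.0523). Without any single KO array the probe no longer met the detection filter.

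Car2, the most active of the cytosolic enzymes and the one whose loss in humans causes renal tubular acidosis, lay on chromosome 3. Its brighter probe ILMN_2606746 had raw intensities of 4285.8, 4657.8 and 2835 on the KO arrays and 4862.5, 4838.8 and 2498.2 on the WT arrays. Normalized values were 12.01, 12.13 and 11.79 in KO, against 12.06, 11.89 and 11.62 in WT. The groups overlapped, and replicate 3 was the lowest array in both. The means were 11.98 ± 0.17 in KO and 11.86 ± 0.22 in WT (SD, n = 3 each), and the difference was 0.12 ± 0.16 (SE, 95% interval -0.25 to 0.49, limma adjusted p = 0.648). Scaling each array by its median in place of quantile normalization turned the sign, to -0.058. The other probe of Car2, ILMN_2603504, carries the same transcript accession in the table and was not well above background on any array, with detection p-values of 0.293 to 0.959 in KO and 0.160 to 0.630 in WT. The measurement of Car2 therefore rests on 1 probe.

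Car13, a second cytosolic enzyme, also lay on chromosome 3. Probe ILMN_1249727 had raw intensities of 397.6, 374.5 and 352.3 on the KO arrays and 567.3, 487 and 380.9 on the WT arrays. Normalized values were 8.11, 7.99 and 8.54 in KO and 8.80, 8.30 and 8.87 in WT. KO replicate 3 lay above WT replicate 2, so the groups overlapped. The means were 8.22 ± 0.29 in KO and 8.66 ± 0.31 in WT (SD, n = 3 each). The difference was -0.44 ± 0.20 (SE, 95% interval -0.90 to 0.017) with a limma p of 0.0572 and an adjusted p of 0.166. Its interval includes both 0 and the difference of Car4, so the data do not separate these. Weighting the arrays by their quality gave -0.60 with an adjusted p of 0.0332, the only alternative that called Car13. The 4 tested probes had 28 to 53 beads per array and a bead standard error of 2.03% to 5.07% of the intensity, a technical error that does not include differences between samples.

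The members were also set against each other within each array, as the difference of the log2 values of a pair of genes, for all 6 pairs of the 4 tested members. Taking this difference removes any shift that the whole array shares. The difference Car2 minus Car4 was 0.68 higher in KO than in WT, and the KO and WT arrays did not overlap. Its exact two-sided permutation p was 0.1 before adjustment, the smallest that 3 against 3 arrays allow. No adjusted value is given, because adjustment over the 6 pairs would draw on those with Car12. The 3 pairs with Car12 are left without a value, since its WT level is only a bound. The KO and WT arrays overlapped for Car2 minus Car13, which was 0.56 higher in KO (exact permutation p = 0.3), and for Car4 minus Car13, which changed by -0.11 (exact permutation p = 0.7). None of the 6 pairs passed a threshold of 0.05, which this design cannot reach.

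Car4 and the microRNA gene are both on chromosome 11, 1.62 Mb apart, with 13 protein-coding genes between them in the RefSeq table. Of these, 7 were tested, 1 was lower in KO and 0 were higher, against 789 lower and 832 higher among all 10343 tested genes. A count of 1 among 7 is near the share called over all tested probes, 15.1%. The one that fell was Tubd1, which encodes delta tubulin, at -0.78 ± 0.17 (SE, limma adjusted p = 0.0198); it is named here after its value was seen. Its other tested probe differed by -0.71 (limma adjusted p = 0.0233). Car13, Car1, Car3 and Car2 follow one another on chromosome 3 with no other protein-coding gene between them. The measured neighbours did not share a direction: the differences were -0.44 for Car13, 3.83 for Car3 and 0.12 for Car2, and only that of Car3 passed the threshold.

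Beyond these members, 10 other carbonic anhydrases were listed, 8 had a probe and 5 were tested. Of these 5, 1 rose (Car3) and 0 fell, against 7.53% of all tested probes called higher and 7.55% called lower. Car3, the cytosolic form abundant in fat and muscle, had 9.34, 8.75 and 10.89 in KO and 7.58, 5.69 and 4.21 in WT, and was detected on 2 of 3 WT arrays. It was 14.2-fold higher in KO, at 3.83 ± 0.77 (SE, limma adjusted p = 0.0155), and without replicate 3 of each group the difference was 2.43 (limma adjusted p = 0.0715). Adipocyte markers moved with it: 6 of 7 tested rose, Car3 among them, and 0 fell, with a median difference of 2.72. Their mean level per array, centred on each gene's mean, was 0.74 to 2.13 in KO and -2.56 to -0.095 in WT. The fat hormone gene Adipoq had 9.54, 9.03 and 11.30 in KO and 8.58, 6.68 and 4.91 in WT. Among the fat markers, Fabp4 was detected on no array. The part of fat tissue in the level of Car3 was not tested.

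Of the other relatives, none passed the threshold. Car9, a membrane form induced by low oxygen, had 8.02, 8.09 and 8.15 in KO and 8.23, 8.41 and 8.16 in WT. Every KO array lay below every WT array for Car9, as for 17% of all tested probes. The closest were KO replicate 3 at 8.15 and WT replicate 3 at 8.16. The difference of Car9 was -0.17 ± 0.14 (SE, limma adjusted p = 0.412). Its other probes differed by -0.20 and -0.28 and did not pass either. Car11, a family member without catalytic activity, differed by 0.61 ± 0.22 (limma adjusted p = 0.0859). Car5b, a mitochondrial form, differed by 0.42 ± 0.20 (limma adjusted p = 0.191), and Car14, another membrane form, by -0.042 ± 0.14 (limma adjusted p = 0.870), a sign that turned in 5 of 17 alternatives. Car6 and Car7 were detected on no array, and Car15 on 2 of 3 KO arrays and on no WT array, too few for the test.

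The transporters and accessory proteins that exchange bicarbonate, chloride and protons across the epithelium were examined as a list of 37 genes, of which 32 had a probe and 18 were tested. Of the 18, 3 rose and 3 fell, with a median difference of 0.14, against 832 higher and 789 lower among all 10343 tested genes and a median of 0.030. Best2, a bicarbonate-permeable anion channel of colonic goblet cells, had the largest difference of the list. Its values were 8.55, 8.49 and 7.41 in KO and 5.39, 5.43 and 5.72 in WT, a 6.21-fold rise (2.64 ± 0.28, limma adjusted p = 0.00129). Best2 was called in all 17 alternatives.

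A pair of scaffold proteins of the brush border that bind apical exchangers passed the test in opposite directions. Slc9a3r1, also known as NHERF1, had 11.00, 10.75 and 10.58 in KO and 11.32, 11.25 and 11.29 in WT, a 1.42-fold fall (-0.51 ± 0.15, limma adjusted p = 0.0483). Slc9a3r2, also known as NHERF2, had 7.20, 7.20 and 7.41 in KO and 6.33, 6.57 and 6.69 in WT, a 1.67-fold rise (0.74 ± 0.15, limma adjusted p = 0.0155). The groups did not overlap for either gene, as for 36.4% of all tested probes. The call was lost in 11 of 17 alternatives for Slc9a3r1 and in 4 of 17 for Slc9a3r2.

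Atp12a, the proton and potassium pump of the distal colon, had 12.55, 12.56 and 12.46 in KO and 12.96, 13.18 and 13.03 in WT, and was 1.45-fold lower in KO (-0.53 ± 0.13, limma adjusted p = 0.0305). Clcn2, a chloride channel of surface epithelium, had 7.84, 7.76 and 7.90 in KO and 8.21, 8.43 and 8.71 in WT, and was 1.53-fold lower (-0.62 ± 0.16, limma adjusted p = 0.0323). Both were below every WT array on all KO arrays, as were Car4 and 17% of all tested probes. Slc9a8, a sodium and proton exchanger, was 1.59-fold higher (0.67 ± 0.15, limma adjusted p = 0.0198), although its other tested probes, at 0.37 and 0.42, did not pass. The calls of Atp12a, Clcn2 and Slc9a8 were lost in 8, 8 and 5 of 17 alternatives.

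Several transporters that work beside carbonic anhydrases did not pass. Slc4a2, a basolateral chloride and bicarbonate exchanger, differed by 0.38 ± 0.14 (limma adjusted p = 0.0990). Its KO arrays all lay above its WT arrays, as for 19.4% of all tested probes. Cftr, the apical chloride and bicarbonate channel, differed by 0.13 ± 0.17 (limma adjusted p = 0.643), and its sign turned when WT replicate 3 was left out (-0.021). The probe of Slc26a3, the apical chloride and bicarbonate exchanger of surface colonocytes, was detected on 2 of 3 arrays in each group and differed by -0.13 ± 0.19 (limma adjusted p = 0.677). Slc4a4, a sodium and bicarbonate cotransporter, was detected on 0 of 3 KO arrays and 2 of 3 WT arrays and was not tested.

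**Figure D2:**
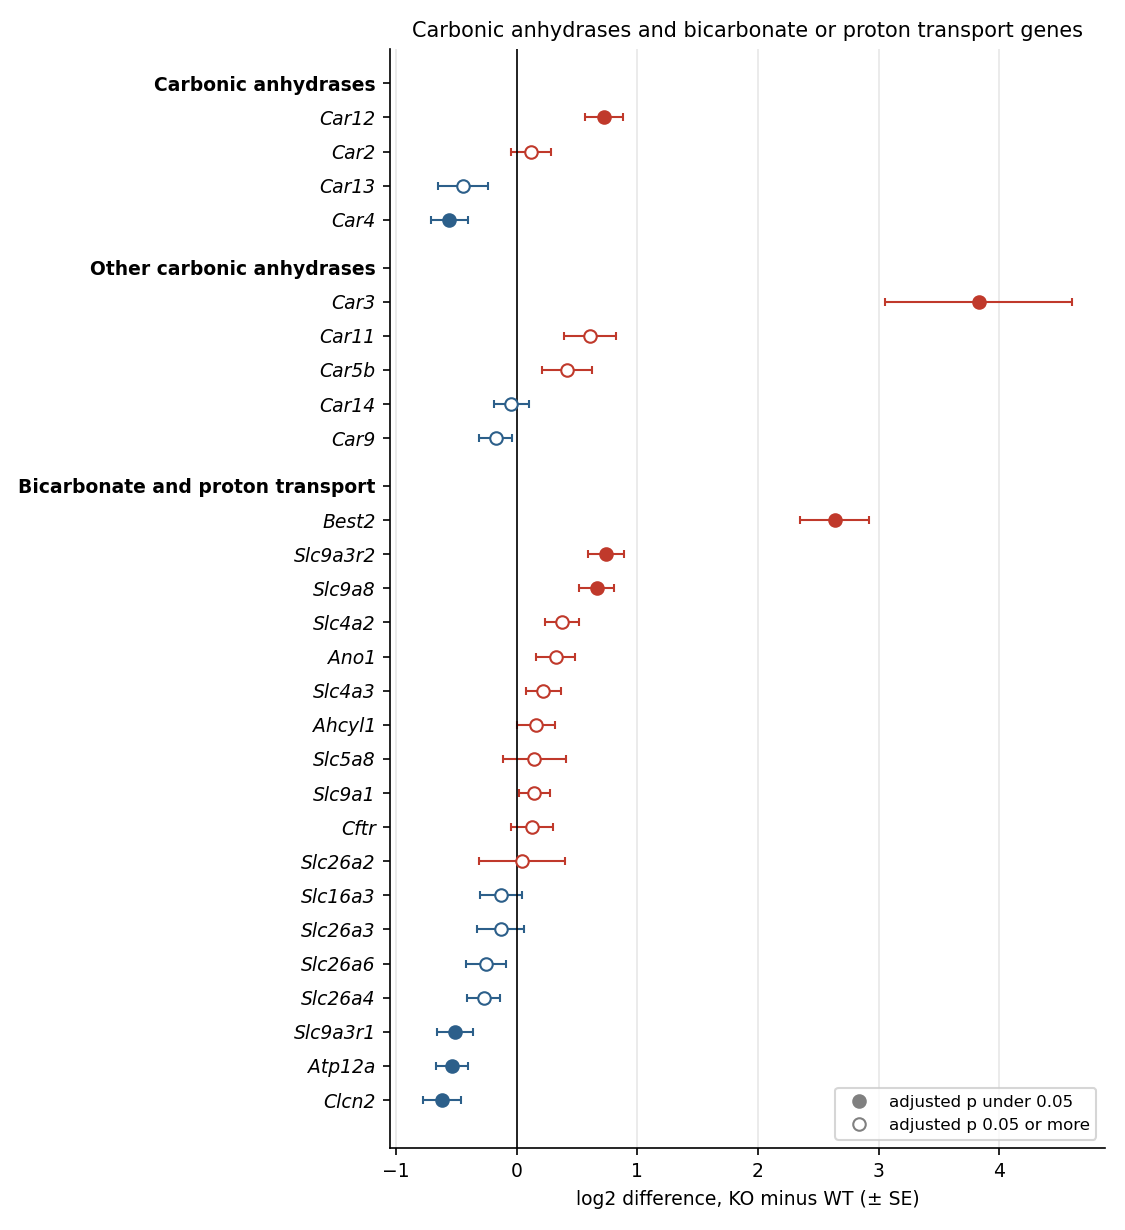
Difference in normalized log2 intensity, KO minus WT, with its standard error, for the tested carbonic anhydrases and the tested genes of bicarbonate and proton transport (1 probe per gene, 3 arrays per group). Filled points passed the adjusted threshold and open points did not; red is higher and blue lower in KO. Car12's point is the fitted value, since its WT level is only a bound. Best2 (2.64) and Car3 (3.83) lie far to the right of the other genes, and Car4 (-0.56) lies beside Atp12a (-0.53), Clcn2 (-0.62) and Slc9a3r1 (-0.51).

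Markers of the cell types that the mucosa could hold were read from the same fit. Each count of markers called stands beside the shares called over all tested probes, 7.55% lower and 7.53% higher. Of 15 tested markers of mature surface colonocytes, the cells in which Car4 is typically found, 4 fell and 1 rose, with a median difference of -0.13. Ceacam20, an adhesion protein of the brush border, fell by 1.35 ± 0.18 on the log2 scale (SE, limma adjusted p = 0.00416). Vil1, the actin-bundling protein villin, fell by 1.15 ± 0.17 (limma adjusted p = 0.00646), and the keratin gene Krt20 fell by 0.63 ± 0.13 (limma adjusted p = 0.0159). The water channel gene Aqp8 fell by 0.62 ± 0.18 (limma adjusted p = 0.0491). Guca2b, encoding uroguanylin, went the other way, at 1.00 ± 0.29 (limma adjusted p = 0.0479). The other tested markers of this list did not pass, and their differences lay on both sides of 0, from -0.44 to 0.43. The calls of Ceacam20 and Vil1 held in all 17 alternatives, while those of Aqp8 and Guca2b were lost in 12 and 13 of 17. The mean level of the 15 markers per array, each centred on its own mean, was -0.13, -0.17 and -0.037 in KO, against 0.18, 0.0038 and 0.16 in WT. All KO arrays thus lay below all WT arrays for this mean, but closely: -0.037 on KO replicate 3 against 0.0038 on WT replicate 2. Among the 15 single markers, every KO array lay below every WT array for 5 and above for 2. Among all tested probes these shares were 17% and 19.4%. The part of colonocyte number in the level of Car4 was not tested.

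The mean level of markers of epithelium as a whole overlapped between the groups, while single markers differed in both directions. Of 11 tested, 1 rose (Krt18, 0.62, limma adjusted p = 0.0361) and 1 fell (Cldn4, -0.68, limma adjusted p = 0.0445), with a median of 0.074; these 2 calls were lost in 9 and 10 of 17 alternatives. The centred mean level of the 11 markers was 0.12, 0.025 and -0.069 in KO and 0.013, 0.0064 and -0.093 in WT. For 3 of the 11 every KO array lay above every WT array, and for 3 every KO array lay below. Among all tested probes these shares were 19.4% and 17%. Of 9 tested goblet cell markers 3 rose and 0 fell, with a median of 0.14, against 7.53% of all tested probes called higher. Those that rose were the antimicrobial protein gene Ang4 at 4.16, the resistin-like gene Retnlb at 2.73, and Best2, which is also in the transporter list. The other tested goblet cell markers did not pass and lay on both sides of 0. They ran from -0.48 (Agr2) to 0.39 (Clca1), with Tff3 at 0.021 and Zg16 at 0.14. The call of Retnlb was lost in 10 of 17 alternatives and that of Ang4 in 2 of 17. Of 6 tested markers of the crypt base, 0 passed in either direction, and all 6 differences were positive, with a median of 0.51. For 3 of the 6 (Reg4, Ephb2 and Lrig1, named after their values were seen) every KO array lay above every WT array. This held for 19.4% of all tested probes. Lgr5 and Ascl2 were near the limit of detection: each was detected on 1 of 3 WT arrays, and Ascl2 differed by 0.024.

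Red blood cells carry Car1, Car2 and other carbonic anhydrases in large amounts. Of 5 tested red cell markers, 1 rose and 1 fell, and the alpha globin gene Hba-a1 had 9.57, 9.80 and 10.85 in KO and 9.85, 9.66 and 10.36 in WT. The centred mean level of the red cell markers was -0.25, -0.12 and 0.44 in KO and -0.18, -0.18 and 0.29 in WT. It was highest on replicate 3 of each group, the dimmest array of the group and the one on which Car2 was lowest. The part of red blood cells in the level of Car2 was not tested. The 2 red cell markers that passed were the closely related beta globin genes Hbb-b1 and Hbb-b2. Hbb-b1 was lower in KO (-1.74, limma adjusted p = 0.00369). Hbb-b2 was detected on no WT array, so its probe entered the test only through the KO arrays and its WT level is only a bound. On the reported scale Hbb-b2 was at least 2.57-fold higher in KO, with a fitted difference of 1.78 (limma adjusted p = 0.0129). Of 8 smooth muscle markers, 1 rose (Cnn1, 0.82, limma adjusted p = 0.0208), and all 8 differences were positive, with a median of 0.78. Among the leukocyte markers, the B cell gene Cd79b fell (-2.65, limma adjusted p = 0.0212). Of 8 macrophage markers 1 fell, the mannose receptor gene Mrc1 (-0.78), and of 7 enteroendocrine and neural markers 1 rose, the proglucagon gene Gcg (1.08).

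**Figure D3:**
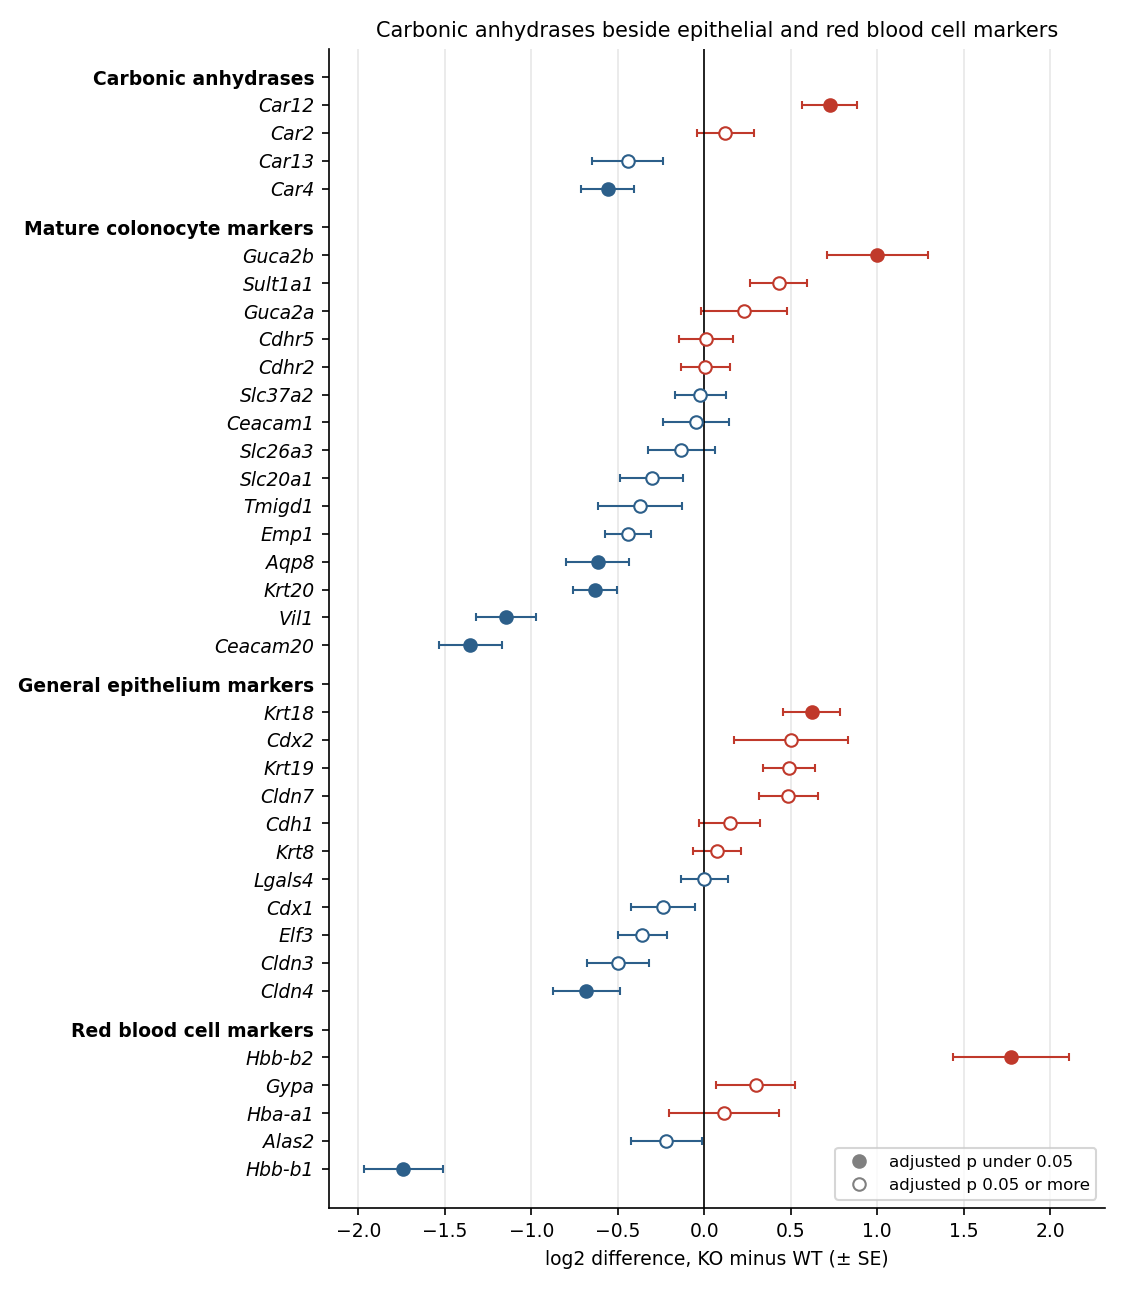
Difference in normalized log2 intensity, KO minus WT, with its standard error, for the carbonic anhydrases and the tested markers of mature colonocytes, epithelium and red blood cells (1 probe per gene, 3 arrays per group). Filled points passed the adjusted threshold and open points did not; red is higher and blue lower in KO, and the points of Car12 and Hbb-b2 are fitted values against a WT level that is only a bound. The mature colonocyte list holds 4 genes that fell and 1 that rose, and Car4 (-0.56) lies beside Aqp8 (-0.62) and Krt20 (-0.63).

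The genes whose level ran most like that of each member over the 6 arrays were found by Pearson correlation among 8816 other genes detected on all arrays. These correlations describe 6 arrays that share the group difference and the normalization. For Car4 the closest were Bcl2l14 (r = 0.993), Nkiras2 (r = 0.990) and Slc44a4 (r = 0.990), and 71 genes had an r above 0.95. Of these 3, Slc44a4, a choline transporter gene, passed the test (-0.48 ± 0.14, limma adjusted p = 0.0479, a call lost in 10 of 17 alternatives), with 11.02, 11.19 and 11.08 in KO and 11.43, 11.62 and 11.68 in WT. For Car2 the closest were Akap7 (r = 0.997), Ppp3cb (r = 0.993) and Gse1 (r = 0.978), and 11 genes had an r above 0.95. For Car13 they were Itgb7 (r = 0.993), Sval1 (r = 0.993) and BC031181 (r = 0.985), and 46 genes had an r above 0.95. Car12 was not detected on all arrays and was left out of this search.

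**Figure D4:**
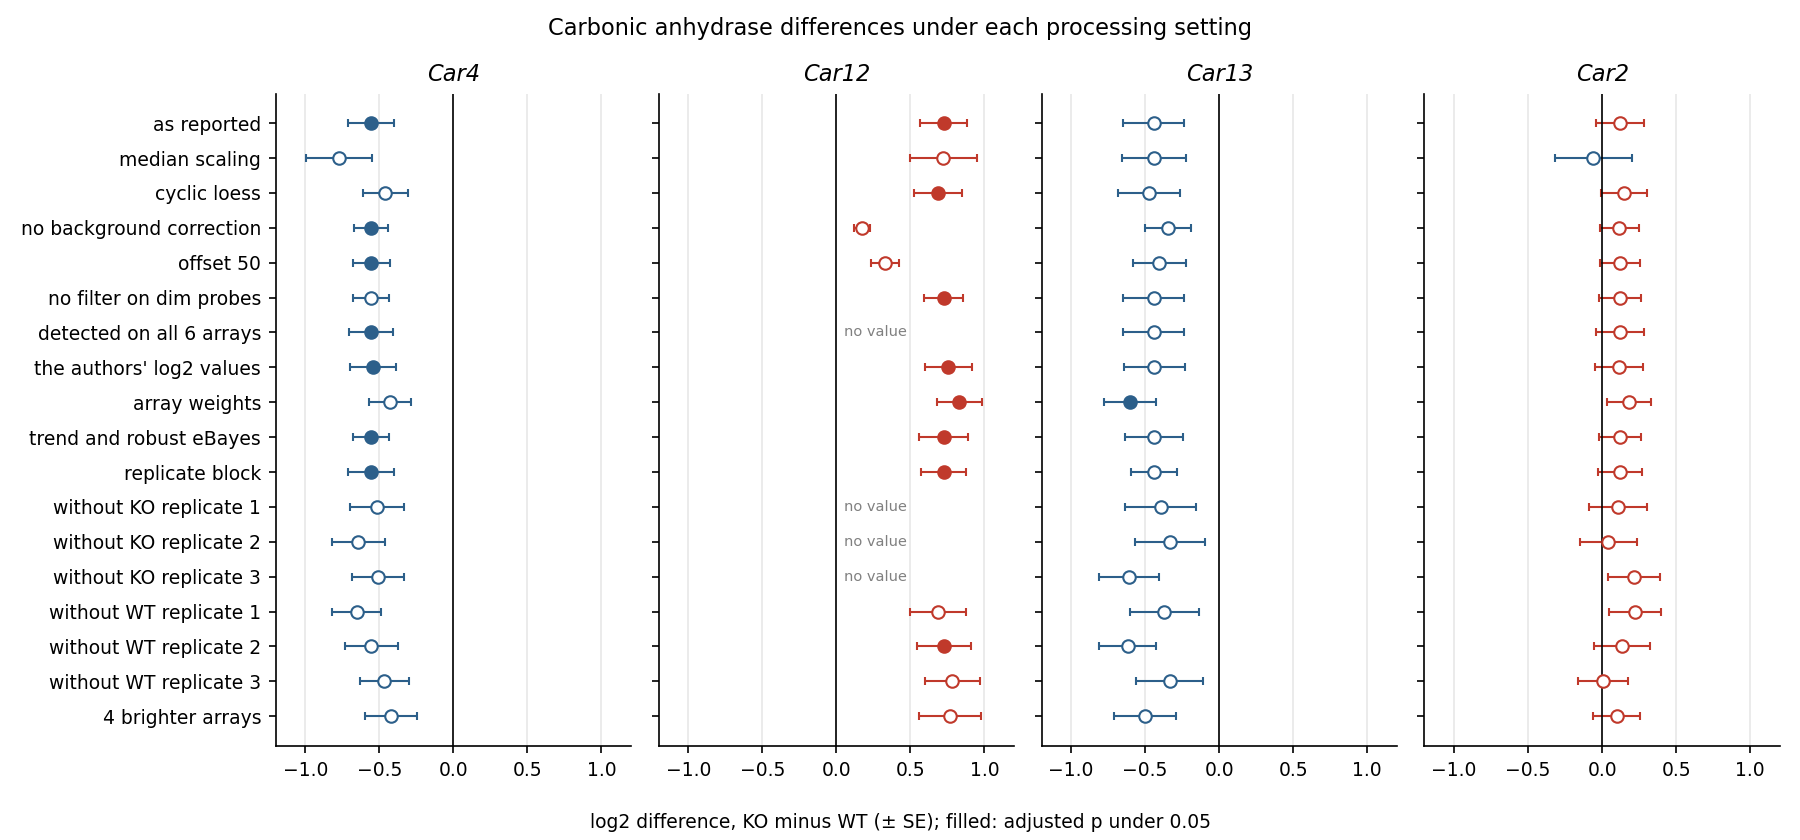
Difference in normalized log2 intensity, KO minus WT, with its standard error, for Car2, Car4, Car12 and Car13 under the reported processing and each alternative; filled points have an adjusted p under 0.05, and red is higher and blue lower in KO. Car4 stays below 0 in every setting (-0.77 to -0.42) and Car12 above 0 in every setting that gave a value (0.18 to 0.83). Car13 stays below 0, and Car2 lies around 0.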

How the data were processed

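Total RNA from colon mucosa was measured on 1-colour (Cy3) bead arrays, 3 miR-21 KO and 3 WT samples, grouped by their titles. Per the file headers, the deposited probe table gives each probe's intensity (linear, not normalized), its detection p-value against negative controls, and, in other units, how many beads were read and their standard error. A second table holds log2 values that the authors deposited after normalization. They correlated with the values computed here at r of about 0.9999 on every array, with a median offset of 0.04, and served as an alternative. Limma is named, without version or role, in the submitters' processing notes; for other software and for the genome build, nothing is given in the sources used here.

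The neqc function (limma 3.58.1 under R 4.3.3, with statmod 1.5.0) normalized the intensities: normexp with background inferred from the detection p-values, offset 16, quantile, log2. Probes detected (detection p-value under 0.05) on at least 3 of 6 arrays were fitted with lmFit and eBayes, KO minus WT, two-sided, no covariate, with Benjamini-Hochberg adjustment over 13737 probes and a threshold of 0.05. The fit was tested on simulated data. Where several probes name 1 gene, the one whose mean over the 6 arrays is highest stands for it. The number of arrays limits the precision. Symbols came from a RefSeq table (GRCm38.p6), matched on Entrez ID (23788 probes) or accession (1148), and otherwise from the file (761).

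Named were all members, the listed relatives and transporters that passed plus a fixed set of well-known ones, up to 5 passing markers per list plus fixed markers, and the 3 genes most like each member. The members and lists were chosen with earlier results of these data known. One leukocyte marker of the lists is not reported here.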

Additional observations from a re-analysis of the deposited data

How the results depend on the processing

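The 4 counts of calls and the differences of 53 genes were recomputed under 17 alternatives, 16 of them listed in advance and 1, the 4 brighter arrays (without replicate 3 of each group), chosen after seeing the data; the pairs of members, correlations, list medians, second probes and Tubd1 were not. Of 887 values for 53 named genes, 25 turned sign, in 12 genes, and no called gene turned. The number of probes called was 2071 (1034 higher, 1037 lower); it was 536 with median scaling (193 higher, 343 lower), 2075 with cyclic loess (925 higher, 1150 lower), 3772 with array weights, 395 with the 4 brighter arrays and 466 to 2090 when 1 array was left out, lowest without KO replicate 2. The number of carbonic anhydrase probes called, 2, was 0 with median scaling and with the 4 brighter arrays, 1 with cyclic loess, no background correction, an offset of 50, no filter on dim probes or detection on all 6 arrays, and 0 to 1 without 1 array. Car12 gave no value where detection on all 6 arrays was required or where a KO array was left out. Car4 without both dimmest arrays was -0.42 (limma adjusted p = 0.178). The number of transport genes called, 6, was 1 with median scaling and with the 4 brighter arrays, and 1 to 3 without 1 array. The number of mature colonocyte genes called, 5, was 3 with cyclic loess and with the authors' log2 values, 2 with the 4 brighter arrays, and 2 to 4 without 1 array. With the replicate number as a block, 2154 probes were called and 2 carbonic anhydrase probes, the adjusted p being 0.0467 for Car4, 0.0206 for Car12 and 0.0883 for Car13. The numbers are not shown to pair the samples: deviations of same-numbered KO and WT arrays from their group means correlated at 0.0069, 0.16 and 0.056, and not every sample correlated best with its own number. None of the values that turned sign had passed the threshold. With median scaling they were -0.058 for Car2, 0.023 for Car14, -0.12 for Krt8, -0.020 for Akap7 and -0.052 for Ppp3cb. With array weights they were 0.014 for Car14, -0.055 for Hba-a1, 0.0079 for Alas2 and -0.067 for Cd68, and with cyclic loess -0.050 for Cd68. With the 4 brighter arrays they were 0.12 for Car14, -0.035 for Cftr, -0.068 for Hba-a1 and -0.023 for Cd68. With 1 array left out the difference lay between -0.094 and 0.035 for Car14, -0.27 and 0.034 for Slc26a3, -0.021 and 0.28 for Cftr, -0.0068 and 0.29 for Cdh1, -0.27 and 0.37 for Hba-a1, -0.089 and 0.084 for Cd68, -0.0096 and 0.079 for Ppp3cb, and -0.042 and 0.22 for Gse1. The cause was not tested. Signal over background limits Car12, whose difference of 0.72 was 0.18 with no background correction and 0.33 with an offset of 50.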
